A study of Glycine max with 46 samples.

Results

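Soybean seeds (Glycine max, cultivar Williams 82) were compared between 2 neighbouring steps of seed drying, early desiccation and mid desiccation. Both groups had the same genotype and received no treatment, so stage is the only labelled difference. Each stage has 3 biological replicates, sequenced in 2 or 3 runs, which gives 13 of the 45 libraries with values and 6 of the 21 biological replicates of a series whose later stages are late desiccation, dry seed and seeds 3 h, 16 h and 27 h into imbibition (water uptake). The labels name whole seed as the tissue while the protocol speaks of embryos, and plants were grown under 16 h of light and 8 h of dark at 22 °C. The sources used here do not say what seed age, colour or water content marks each stage. Nor do they say that replicates came from separate plants, so p-values measure the spread between these samples.

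Desiccation is the last phase of seed maturation. After the cotyledons have filled with storage protein, oil and sugars, the seed loses water, becomes tolerant of drying under the hormone abscisic acid, and shuts down metabolism until it takes up water again. Transcripts that remain in the dry seed can be used when germination starts. The deposited table gives genes as IDs only and the reference at hand pairs none of them with a name, so no function is stated for any gene. Results are given as counts of genes and as values of a few IDs, at most 2 in each direction for each fit. IDs number the chromosome (Glyma08g for chromosome 8).

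Values are normalized counts, that is reads of a gene divided by a size factor of the library. The 6 replicates held between 43.8 and 78.2 M reads (M, 1e6 reads). To keep off quiet genes, changes were read for genes with a mean of at least 200 normalized counts at both stages, called level-limited genes here. There were 10902 of these with all libraries and 10788 without early desiccation replicate 3.

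Over the level-limited genes, early replicate 3, mid replicate 1 and mid replicate 3 each lay nearest to a library of the other stage. Early desiccation replicates 1 and 2 were alike, with 0.789% of the 10902 level-limited genes at least 2-fold apart after each library's median was removed. Early desiccation replicate 3 differed from them at 11.1% and 11.9% of genes, and from mid desiccation replicate 3 at only 2.10%. Mid desiccation replicate 1 in turn differed from early desiccation replicates 1 and 2 at 2.05% and 1.64% of genes, and from mid desiccation replicates 2 and 3 at 3.44% and 4.95%. Mid desiccation replicates 2 and 3 differed at 2.68%, slightly more than mid replicate 3 and early replicate 3 did. So early replicate 3 and mid replicate 3 lay nearest to each other, and mid replicate 1 lay nearest to early replicates 1 and 2. Correlations of log2 values gave the same nearest libraries, r = 0.960 for early replicate 3 with mid replicate 3 against 0.887 and 0.882 with its own stage, and r = 0.968 for mid replicate 1 with each of early replicates 1 and 2. For mid replicates 2 and 3 it was r = 0.957. Each r was taken over genes, which are no independent replicates. Run 1 taken alone put early replicate 3 and mid replicate 3 at 2.59% of genes apart, and the last run of each replicate put them at 2.35%. The cause was not tested, and libraries are named by their labels throughout.

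**Figure D1:**
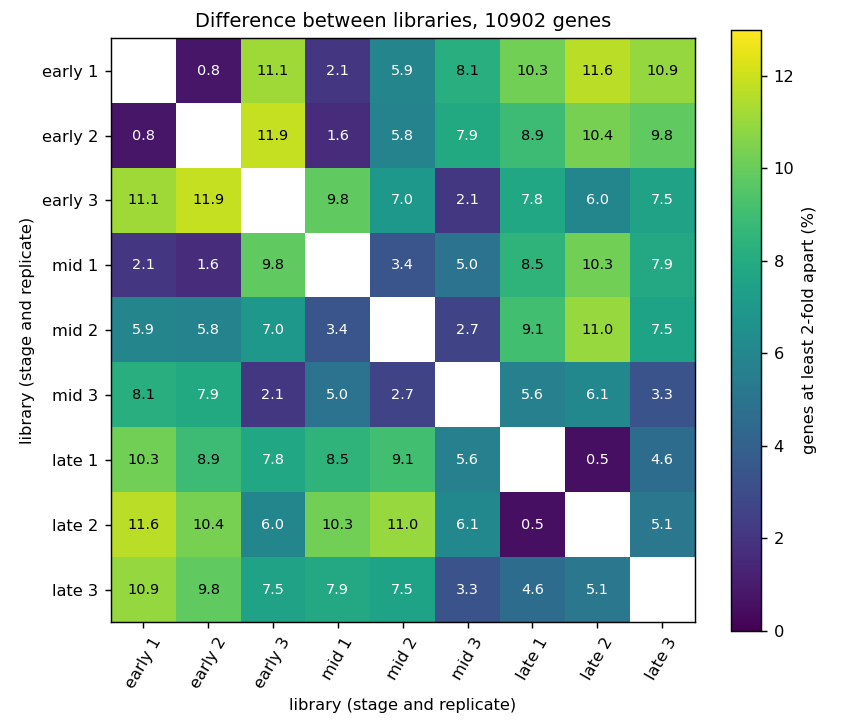
Percentage of 10902 level-limited genes that are at least 2-fold apart between each pair of libraries of early, mid and late desiccation, after removal of each library's median; rows and columns are replicates with runs averaged. Early 3 and mid 3 are closest to each other (2.10%), and mid 1 is closest to early 2 (1.64%) and early 1 (2.05%).

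Among the 6 replicates, early replicates 1 and 2 stood apart in their quiet genes, and early replicate 3 had the lowest median level. Genes with 0 reads numbered 17903 and 19057 in early replicates 1 and 2, but 1410 in early replicate 3 and 1628 to 2297 in the mid replicates. Over the level-limited genes the median level was 611 and 613 normalized counts in early replicates 1 and 2, 477 in early replicate 3, and 567, 563 and 539 in mid replicates 1, 2 and 3. The median SD between replicates, on the log2 scale after library medians were removed, was 0.227 in early desiccation and 0.0916 with only its replicates 1 and 2, against 0.220 in mid desiccation (n = 3).

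Runs of the same replicate disagreed strongly for a small set of genes. In each of the 6 replicates between 2.41% and 2.61% of the level-limited genes were at least 2-fold apart between run 1 and the last run. The differences were alike from replicate to replicate, with r between 0.912 and 0.978 over the 15 pairs of replicates (a correlation across genes). Genes with at least 200 normalized counts in run 1 and 0 reads in the last run numbered 23 in each of early replicates 1 and 2, 3 in early replicate 3, and 4 to 6 in the mid replicates. The reverse held for 17 and 15 genes in early replicates 1 and 2, for 0 in early replicate 3, and for 2 to 5 in the mid replicates. By the median over the 6 replicates, 270 of the 10902 genes were 2-fold or more apart between runs. What set the runs apart is not stated in the labels, and the cause was not tested. Counts of called genes are therefore also given over genes whose runs agree, which means less than 2-fold apart.

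With all libraries, 5 level-limited genes rose from early to mid desiccation and none fell. The 5 are 0.0459% of the 10902 genes, and over all 46537 genes tested 23 rose, which is 0.0494%. All 5 have runs that agree. Changes were small on the whole, with 99.0% of level-limited genes changing less than 2-fold and a median log2 change of -0.01. A difference in a whole seed can come from fewer cells of a type or from less RNA per cell, which cannot be told apart here.

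The largest of the called rises was Glyma08g14810. Its level was 306, 286 and 131 normalized counts in early replicates 1, 2 and 3 and 2511, 1391 and 1117 in mid replicates 1, 2 and 3. The groups did not overlap, and early replicate 3 was the lowest of the 6. Its mean went from 241 ± 95.5 to 1673 ± 739 (mean ± SD, n = 3), a log2 change of 2.80 ± 0.48 SE or 6.95-fold (limma adjusted p = 0.0335). In late desiccation it stood at 374 ± 217, in dry seed at 642 ± 422 and at 27 h at 2136 ± 269. The gene was thus high in mid desiccation and again at 27 h, with lower levels at the stages between them. The call did not hold without any one of early replicates 1 and 2 or the 3 mid replicates, where the log2 change was 2.46 to 3.04 (limma adjusted p = 0.0607 to 0.235), nor with only the 2 stages in the fit (2.80, adjusted p = 0.119).

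Glyma17g04620 was measured at 552, 513 and 387 normalized counts in the early replicates and at 2453, 3887 and 1339 in the mid replicates. Again the groups did not overlap and early replicate 3 was the lowest. The mean went from 484 ± 86.2 to 2559 ± 1278 (n = 3; log2 change 2.29 ± 0.34 SE, 4.88-fold, limma adjusted p = 0.00926). At the 5 later stages its means lay between 260 and 458. Its highest mean of the 7 stages was that of mid desiccation. The call was lost without mid replicate 1 (log2 change 2.25, adjusted p = 0.0694), without mid replicate 2 (1.92, adjusted p = 0.0701), and with only the 2 stages in the fit (2.29, adjusted p = 0.145).

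The other 3 rises lay between 292 and 562 normalized counts in the early libraries and between 829 and 2553 in the mid libraries, with log2 changes of 1.30 to 2.15 (limma adjusted p = 0.00113 to 0.00926). Of the 5, 4 had their highest mean of all 7 stages in mid desiccation, and in all 5 the late desiccation mean was below the mid mean. They were also called under TMM scaling, after centring on the median change, with edgeR and with DESeq2. All 5 were called without early replicate 3 as well.

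No level-limited gene fell at the threshold with all libraries by limma, and edgeR and DESeq2 on recovered reads gave none either. At an unadjusted p under 0.05, limma had 289 falls and 448 rises among the level-limited genes. The count of 5 became 40 with TMM scaling (trimmed mean of M values), 24 with edgeR, 16 with DESeq2, 11 with run 1 alone and 12 with the last run alone, all of them rises, and 1 with the other stages left out of the fit. It was 1 without mid replicate 1, and 3 without early replicate 1, mid replicate 2 or mid replicate 3. Replicates did not overlap between the stages for 590 rising genes (5.41%) and 403 falling genes (3.7%). With 3 against 3 replicates some genes separate in this way without a stage difference. At least 2-fold higher in mid desiccation were 102 genes and at least 2-fold lower 11.

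**Figure D2:**
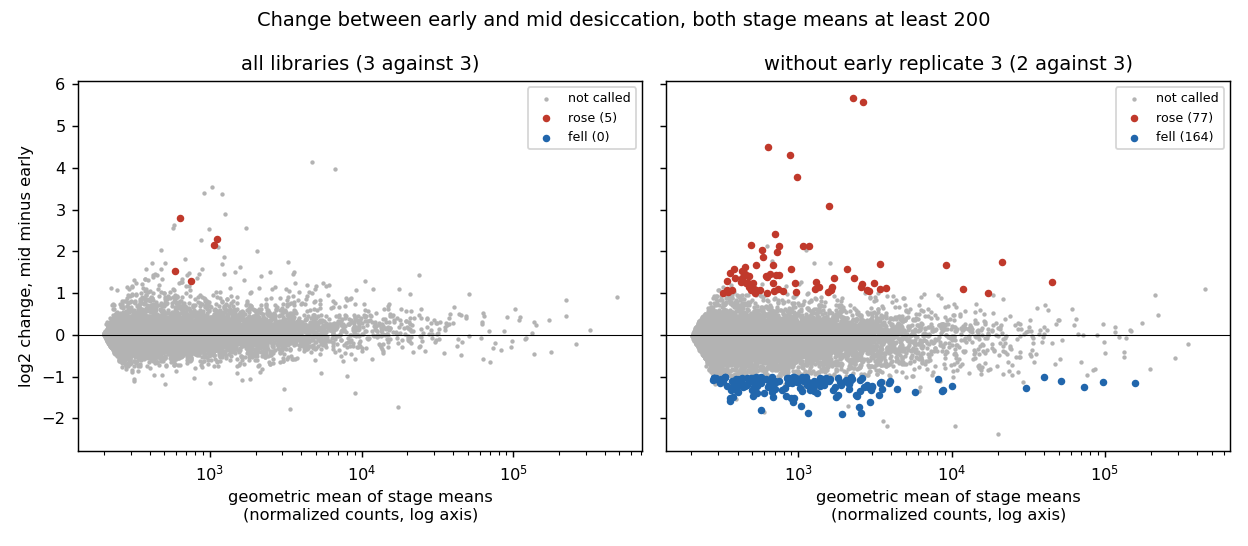
Log2 change from early to mid desiccation (vertical axis) against the geometric mean of both stage means in normalized counts (log axis) for level-limited genes, with all libraries on the left and without early replicate 3 on the right. Red points are called rises and blue points called falls: 5 and 0 on the left, 77 and 164 on the right.

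Without early desiccation replicate 3, the same comparison gave many falls. Of 10788 level-limited genes 77 rose (0.714%) and 164 fell (1.52%), with 1002 genes at an adjusted p under 0.05 whatever the size of the change. The adjustment ran over all genes tested, and many small p-values among quiet genes loosen it for level-limited ones. With the level limit set before the fit, which also changes the variance estimate, 120 genes were called in place of 241. Over all 44990 genes tested 19.4% rose and 0.627% fell. Most of the rises over all genes were quiet ones, since 8000 outside the level limit had an early mean below 10 normalized counts. Early replicates 1 and 2, the early libraries kept here, had 17903 and 19057 genes with 0 reads, against 1628 to 2297 in the mid replicates. With early replicate 3 kept, which had 1410, only 23 genes rose over all genes tested. These rises over all genes are therefore not read as a change between stages. Replicates did not overlap for 1043 rising (9.67%) and 3380 falling (31.3%) level-limited genes. With 2 against 3 replicates, genes separate without a stage difference more often than with 3 against 3. These counts are on the deposited scale, which favours falls. The median level there was 611 and 613 normalized counts in early replicates 1 and 2 and 539 to 567 in the mid replicates. Of the 77 and 164 genes, 65 and 157 have runs that agree. These 157 falls were modest in size, down to -1.90 on the log2 scale with a median of -1.15, and their median level went from 1309 normalized counts in early to 639 in mid desiccation. The 65 rises had a median log2 change of 1.24 and a median level of 393 in early and 1126 in mid desiccation.

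How many rose against how many fell moved with the scaling and the tool. The edgeR and DESeq2 fits also took reads summed over runs, where limma took averages of runs. With TMM the median over all genes shifted by 0.20 on the log2 scale without early replicate 3 and by 0.29 with it. Falls and rises were 64 and 148 with TMM, 91 and 120 after centring on the median change of the level-limited genes (-0.12), 29 and 152 with edgeR and 208 and 59 with DESeq2. Called in the same direction under all 5 of these fits were 50 rises and 23 falls. When the level limit was set before the fit, which changes both the variance estimate and the genes over which p-values are adjusted, 35 rose and 85 fell, all of them among the 77 and the 164. Single libraries moved the count as well, from 241 to 18 and 8 without early replicate 1 or 2, and to 413, 110 and 42 without mid replicate 1, 2 or 3.

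Glyma14g11770 had the largest called fall. It stood at 3730 and 3434 normalized counts in early replicates 1 and 2, at 661 in early replicate 3, and at 1566, 656 and 848 in the mid replicates. Early replicate 3 thus lay inside the range of the mid replicates, next to the lowest of them. Without it the mean went from 3582 ± 209 (n = 2) to 1023 ± 479 (n = 3), a log2 change of -1.90 ± 0.57 SE (limma adjusted p = 0.0338). With it the log2 change was -1.09 ± 0.63 SE (adjusted p = 0.624). Its mean was 579 in late desiccation and 564 in dry seed. During imbibition it stood at 1224 (3 h), 349 (16 h) and 9.59 ± 7.15 (27 h; SD, n = 3). The call was lost with run 1 alone (adjusted p = 0.106), without early replicate 1 or 2, without mid replicate 2 or 3, and with the level limit set before the fit (adjusted p = 0.0839).

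Glyma20g34630 was the next largest fall. It had 2259 and 1955 normalized counts in early replicates 1 and 2, 468 in early replicate 3, and 1057, 498 and 351 in the mid replicates. Mid replicate 1 was the highest of its stage, and early replicate 3 lay between mid replicates 2 and 3. The log2 change was -1.88 ± 0.30 SE without early replicate 3 (limma adjusted p = 0.00223) and -1.16 ± 0.43 SE with it (adjusted p = 0.624). Unlike the gene above, it was called in each of the other fits that also left out early replicate 3, with log2 changes from -1.51 to -2.33. From late desiccation onward its means ranged from 378 to 731.

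The largest called rises without early replicate 3 had nearly all of their signal in run 1. Glyma11g33922 had run 1 values of 1736 and 134 normalized counts in early replicates 1 and 2, of 9705 in early replicate 3, and of 10501, 34548 and 23255 in the mid replicates. In the later runs of the same 6 replicates it had between 0 and 4.99 normalized counts. In early replicate 1 the last run held 56.9 M reads and none of this gene, where 3 reads would be 1.06 normalized counts. Averaged over runs, the log2 change was 5.68 ± 1.56 SE (limma adjusted p = 0.0300). Its log2 change was 7.80 without early replicate 1 and 3.55 without early replicate 2, and the call was lost without either of them, without mid replicate 2 or 3, and with the level limit set before the fit (adjusted p = 0.0652 to 0.219). On reads summed over runs, DESeq2 gave no adjusted p for it and edgeR did not call it (adjusted p = 0.0690).

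Glyma09g28800 followed the same pattern. Its run 1 values were 1629, 304 and 16046 normalized counts in early replicates 1, 2 and 3 and 17180, 47592 and 25637 in the mid replicates, while the later runs held 0 to 71.4. The log2 change was 5.58 ± 1.46 SE (limma adjusted p = 0.0262), and 4.60 with the last run alone (adjusted p = 0.00471). It was 7.08 without early replicate 1 and 4.08 without early replicate 2, and the call was lost without either of them, without mid replicate 2 or 3, and with the level limit set before the fit (adjusted p = 0.0565 to 0.192). DESeq2 gave no adjusted p here either. In run 1 both genes were higher in mid desiccation than in early replicates 1 and 2, but for a transcript high in 1 run of a replicate and nearly absent from another, their average is no level of either run. Late desiccation replicate 3 is represented by run 1 alone, with 2.53 M reads, so its values for such genes, 329881 and 658114 normalized counts, are not on a par with those of late replicates 1 and 2. Among the 65 rises whose runs agree the highest log2 change was 2.41, that of Glyma08g14810.

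**Figure D3:**
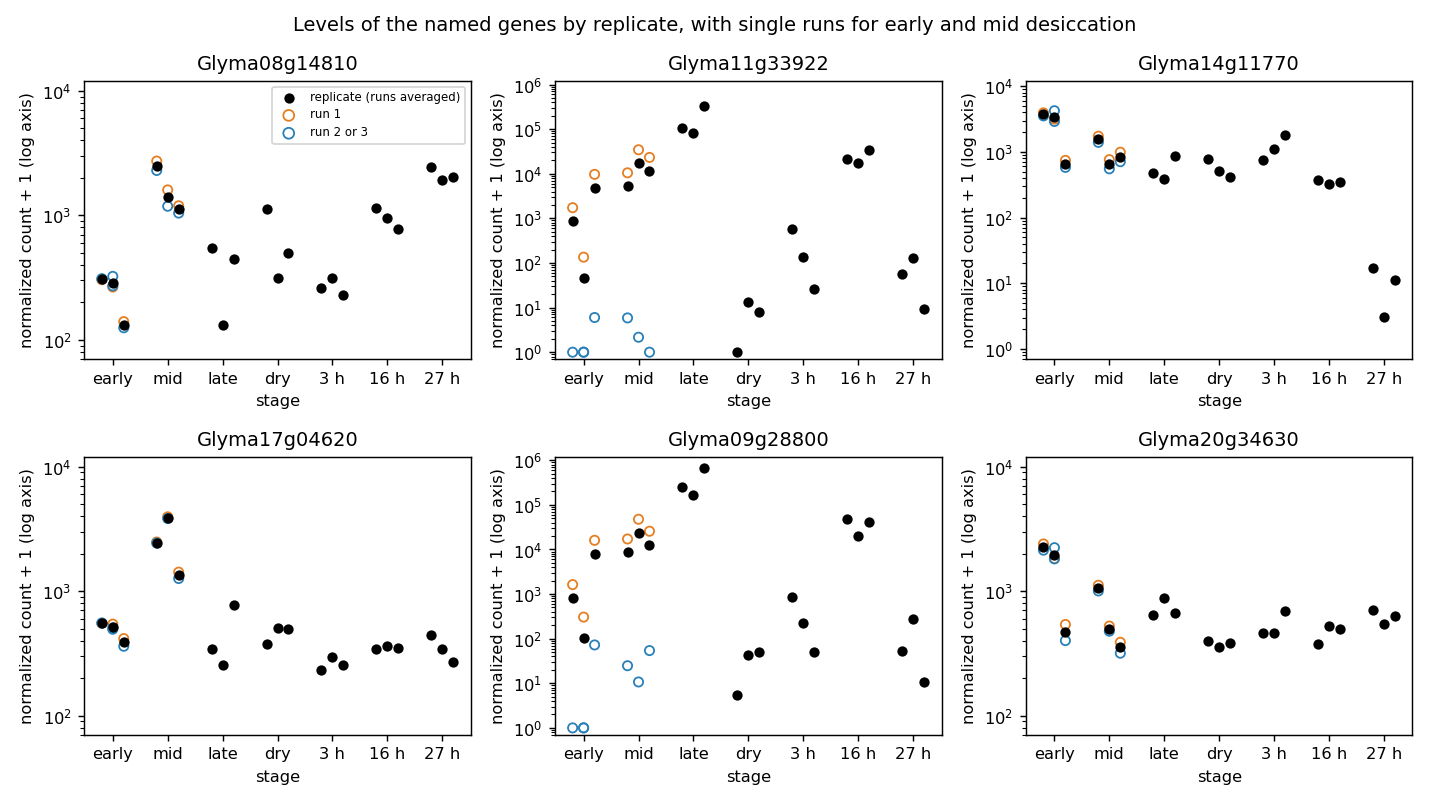
Normalized counts plus 1 (log axis) of 6 genes in each replicate of the 7 stages (black, runs averaged); open circles are single runs for early and mid desiccation, orange for run 1 and blue for later runs. Runs agree for 4 genes, while Glyma11g33922 and Glyma09g28800 are high in run 1 and near 0 or low in later runs; in early desiccation the third point, replicate 3, sits at mid levels for Glyma14g11770 and Glyma20g34630.

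Early replicate 3 took no part in the fit that chose the 164 falls and 77 rises. It was left out because it stands apart from early replicates 1 and 2, so its values for these genes are no independent reading. It was below both other early replicates in all 157 falls whose runs agree, and in 156 of them after library medians were removed. Of all 10525 level-limited genes whose runs agree, it was below both in 71.5% on the deposited scale and in 41.0% after medians were removed. Since the falls were chosen for high values in early replicates 1 and 2, part of such a difference follows from the choice. Relative to the mean of early replicates 1 and 2, with medians removed, the falls stood at a median log2 difference of -1.51 in early replicate 3, -0.30 in mid replicate 1, -1.34 in mid replicate 2 and -1.49 in mid replicate 3. The fall was thus deepest in early replicate 3 and mid replicates 2 and 3 and shallow in mid replicate 1. In 69 of the 157 genes early replicate 3 lay below all mid replicates, and in 5 above all.

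For rises the picture was mixed. Of the 65 rises whose runs agree, early replicate 3 was nearer to the mid mean than to the other early replicates in 37 and nearer to the early side in 28, with library medians removed. Over all 10525 level-limited genes whose runs agree it was on the mid side in 64.3%, against 56.9% of the rises. It was above both other early replicates in 47 rises (72.3%) and below both in 14 (21.5%), against 46.1% and 41.0% of all those genes. The median log2 difference from early replicates 1 and 2 was 0.87 in early replicate 3, 1.23 in mid replicate 1, 1.46 in mid replicate 2 and 1.52 in mid replicate 3. Mid replicate 1, which stayed near the early level in the falls, was thus close to its own stage in the rises. Unlike early replicate 3, the mid replicates took part in choosing the genes.

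**Figure D4:**
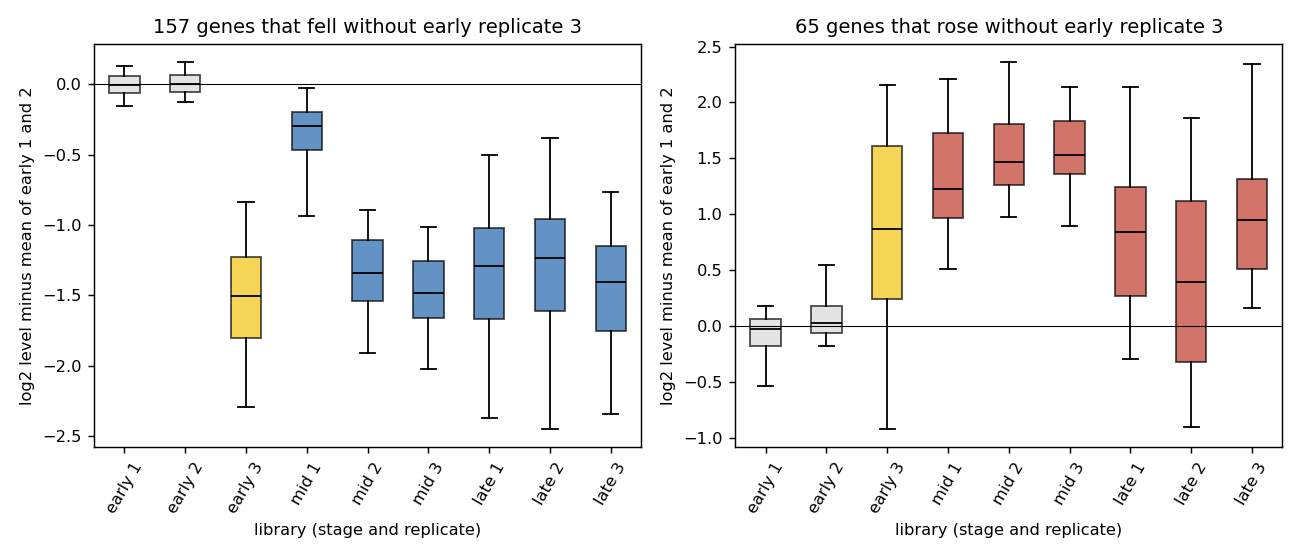
Log2 level relative to the mean of early replicates 1 and 2, with library medians removed, for 157 falls (left) and 65 rises (right) whose runs agree, in the libraries of early, mid and late desiccation; boxes are quartiles with the median, whiskers the 5th to 95th percentile of genes. In the falls, early 3 (yellow, median -1.51) lies with mid 2 and mid 3 and mid 1 lies at -0.30; in the rises early 3 spreads from early to mid levels.

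The rises on which early replicate 3 was nearer to the mid mean and those on which it was nearer to the early side had different levels after water uptake. The first 37 had a median stage mean of 1342 normalized counts at 3 h and 1397 at 16 h, after 767 in late desiccation and 537 in dry seed, and 14 of them were highest at 3 h among the 5 later stages. The other 28 had medians of 411 at 3 h and 678 at 16 h, after 604 and 611, with 1 highest at 3 h and 10 highest in dry seed. Among all level-limited genes whose runs agree, 21.3% were highest at 3 h and 35.4% in dry seed. Their median stage means were 530 in late desiccation, 598 in dry seed, 578 at 3 h and 517 at 16 h. These splits follow 1 library and were not tested.

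The 5 later stages entered the choice of genes only through the filter and the shared variance, and the falls stayed low there. The median level over the 157 falls was 1327 and 1320 normalized counts in early replicates 1 and 2, and 355 in early replicate 3. In mid replicates 1, 2 and 3 it was 1028, 481 and 399. At each later replicate it lay between 300 and 529. Once lower, these transcripts as a group were found at about the mid replicate 2 and 3 levels for the rest of the series. Of the 157, 65 (41.4%) had their highest later mean in late desiccation and 55 (35.0%) at 27 h, against 15.0% and 20.4% of all 10525 level-limited genes whose runs agree. In dry seed 15 (9.55%) were highest, against 35.4%. No test was made of these shares.

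The 65 rises were at a median of 388 and 459 normalized counts in early replicates 1 and 2, 660 in early replicate 3, and 981, 1208 and 1120 in the mid replicates. In late desiccation the median was 692, 449 and 842 in replicates 1, 2 and 3, so the late libraries overlapped the early ones. It was 503 to 739 in dry seed, 575 to 779 at 3 h, 905 to 1081 at 16 h and 463 to 495 at 27 h. These medians were higher in mid desiccation and at 16 h than in dry seed and at 27 h, without a test. The highest later mean was at 16 h in 12 of the rises (18.5%) and in dry seed in 13 (20%), against 7.99% and 35.4% of all level-limited genes whose runs agree. It was in late desiccation in 12 (18.5% against 15.0%), at 3 h in 15 (23.1% against 21.3%) and at 27 h in 13 (20% against 20.4%). These shares were not tested.

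**Figure D5:**
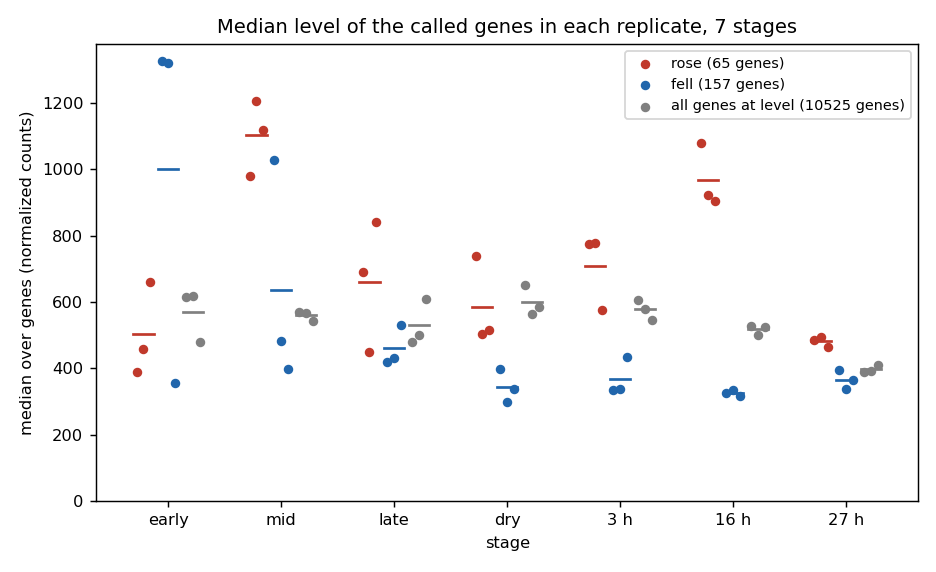
Median level over genes (normalized counts) in each of the 3 replicates of 7 stages for 65 rises, 157 falls and all 10525 level-limited genes whose runs agree; dots are replicates, bars their mean. The falls stand near 1320 in early replicates 1 and 2 and at 355 in early replicate 3; the rises reach 981 to 1208 in mid desiccation and 905 to 1081 at 16 h.

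The most abundant transcripts were largely the same at both stages. Of the 100 genes with the highest means, 87 were shared between early and mid desiccation, and 86 without early replicate 3, while mid and late desiccation shared 77. By library, early replicates 1 and 2 shared 94 of their leading 100, early replicate 1 and mid replicate 1 shared 92, and early replicate 3 and mid replicate 3 shared 88, against 76 for early replicates 1 and 3. In early desiccation the leading 100 genes of a library made up 30.7% ± 3.08 of its normalized counts, and in mid desiccation 32.5% ± 0.530 (SD, n = 3), less than the spread between replicates apart. Of the 100 genes with the highest level at either stage, 82 changed by less than 0.5 on the log2 scale with all libraries, 3 changed 2-fold or more and none was called by limma. Over all level-limited genes 99.0% changed less than 2-fold. Without early replicate 3, 9 of them were called, 4 rose at least 2-fold and 8 fell at least 2-fold. In that comparison 97.2% of all level-limited genes changed less than 2-fold, and the called shares were 0.714% for rises and 1.52% for falls. Changes were more frequent among these 100, without a test. A gene enters them through the stage where it is higher, which favours genes that differ between stages. Genes whose runs differ were not left out. The higher share is therefore not read as a result about abundant genes.

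The percentage of genes that changed at least 2-fold was higher in the more abundant classes. Part of this follows from the level limit. Since both stage means must reach 200, genes of the lowest class have little room for a 2-fold change. Without early replicate 3, 1.90% of 4531 genes at 200 to 500 normalized counts (geometric mean of the stage means) changed at least 2-fold, 2.95% of 4818 at 500 to 2000, 4.90% of 1204 at 2000 to 10000, and 6.38% of 235 above that. With all libraries these shares were 0.664%, 1.06%, 2.25% and 2.31%. The called falls included 6 genes above 10000 normalized counts, and the called rises 4. These counts include genes whose runs differ. The highest early mean was 28418 normalized counts among all 77 rises and 11844.5 among the 65 whose runs agree. By the numbers in the IDs, rises and falls were found on all 20 chromosomes, with the most on chromosome 8, which had 9 of the 77 rises, 16 of the 164 falls and 7.56% of the level-limited genes.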

How the data were processed

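Per the labels' protocols, embryos were collected at 7 stages, RNA was purified on Qiagen columns with DNase treatment, and Illumina TruSeq libraries were sequenced. Trimmomatic 0.38 and HISAT2 are named in the submitters' processing notes. Counter, genome build, annotation and strand setting: not given in the sources used here, so near-identical, overlapping and antisense genes are uncertain. Each deposited value is a signal, the count that the authors divided by a size factor of the library, going by the name of the table. All values were whole multiples of 1 read (tolerance 0.001 reads), so reads were recovered. Of 46 labelled samples 45 matched a column, and 1 further column was not used. Of 54175 IDs, 0 matched the reference table (59048 genes, assembly Glycine_max_v4.0), so gene lists and promoter or protein sequences could not be used.

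Runs of a replicate were averaged for limma. For edgeR and DESeq2 the recovered reads of its runs were summed, so deeper runs weigh more there. The filter kept genes that reached 10 normalized counts in 3 replicates or more, and these were tested with limma 3.58.1 (R 4.3.3) on log2(value + 1), 7 stages in 1 fit, variance trend, robust moderation and Benjamini-Hochberg adjustment over all genes tested. Calls were made at an adjusted p under 0.05 with a minimum change of 2-fold, on a scale that compresses the changes of quiet genes. Where no tool is named, an adjusted p is from limma. Named genes are the 2 largest called changes per direction and fit with both stage means at least 200 and no overlap between stages. Members, lists and tests were chosen with earlier results of these data known. Alternatives were edgeR 4.0.16 and DESeq2 1.42.0 on recovered reads and those in the closing section. Fits were also run on simulated counts. There early replicate 3 did not stand apart and single runs were not simulated, so the effect of those features was not checked. Descriptions and figures used Python 3.11.15, numpy 2.4.6, pandas 2.3.3 and matplotlib 3.10.9. Floors cover counting error only.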

Additional observations from a re-analysis of the deposited data

How the results depend on the processing

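Counts of called level-limited genes moved with many settings, and the causes were not tested. With all libraries the 5 calls became 40 with TMM scaling, 24 with edgeR, 16 with DESeq2, 11 with run 1 alone, 12 with the last run alone, 1 with only the 2 stages in the fit and 1 at a level limit of 500. Without late desiccation replicate 3 and dry seed replicate 1 among the other stages, an alternative added after seeing the data, it was 22. All of these were rises. Leaving out 1 replicate gave 1 to 241, the highest without early desiccation replicate 3. The 23 calls over all genes became 91 (TMM), 77 (edgeR), 70 (DESeq2), 40 (last run), 6 (2 stages alone) and 62 (other stages trimmed), and 3 to 9027 with 1 replicate left out. Without early replicate 3, the 241 calls became 120 with the level limit set before the fit, 1002 with no minimum fold, 123 at a level limit of 500, and 8 to 413 with a further replicate left out; in those with 1 early library, it is assumed to vary like the other groups. Rises were 32.0% of these 241 calls, and 69.8% with TMM, 84.0% with edgeR, 22.1% with DESeq2 and 56.9% after centring (added after seeing the data, as was the last run alone and leaving out genes whose runs differ). With the replicate number as a block (replicate block), 9 genes were called with all libraries, 223 without early replicate 3 and 30 over all genes. Deviations from the stage means correlated at 0.553, -0.052 and 0.656 between early and mid replicates of number 1, 2 and 3. Early replicate 2 correlated best with mid replicate 1 (0.567). Deviations within a stage depend on each other, so these values cannot tell whether replicates of the same number were paired. The labels give only the number. All named genes kept their direction under every alternative that gave a value; Glyma11g33922 gave none with the last run alone, where it was under the filter.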

Other observations

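Genes outside the level limit were described as well. With all libraries 18 of the 23 called rises had an early mean below 200 normalized counts. Their early means ranged from 2.97 to 106 and their mid means from 147 to 1013, and in 14 the mid mean reached 200. The called gene just inside the limit had a lower stage mean of 241 (log2 change 2.80) and the one just outside 106 (log2 change 2.55). Without early desiccation replicate 3, 8668 rises and 118 falls were called outside the limit. The rises had a median early mean of 0 and a median mid mean of 21.3 normalized counts, 8000 of them had an early mean below 10, and 124 reached 200 in mid desiccation. The 2 early libraries of that fit had 17903 and 19057 genes with 0 reads, against 1410 in early replicate 3. Of the 118 falls, 73 had an early mean of at least 200.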
